A study of Schizosaccharomyces pombe with 6 samples.

Results

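The sugar-transferring enzymes described here are the products of 40 protein coding genes of the fission yeast Schizosaccharomyces pombe. They were chosen because the product text in the authors' deposited table names a mannosyltransferase or a galactosyltransferase, with genes named mug, meu or mde to be left out (none of the 40 was). They are 40 of 6986 genes in the count table and of 5126 protein coding genes, and all 40 were tested. Poly(A)+ RNA was sequenced from h+ cells with a rad24 delta::NatMX allele (3 libraries) and from h+ wild type cells (3 libraries). Both strains were in log phase in YES, a rich medium, at 30 °C. Each genotype is given as 1 strain number, and no label states separate cultures. The p-values therefore reflect the scatter of these libraries, which may be technical. Rad24 is a 14-3-3 protein, which binds phosphorylated partners, and the comparison asks what its loss does to the transcriptome.

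Mannose enters the yeast secretory pathway by several routes. In the endoplasmic reticulum the Dpm complex makes dolichol-phosphate mannose, Alg enzymes build the dolichol-linked oligosaccharide that is moved to asparagines of proteins, other enzymes build glycosylphosphatidylinositol (GPI) anchors, and Ogm enzymes put mannose on serine and threonine. In the Golgi, Och1 starts the long outer chain of N-linked glycans, enzymes of the Mnn9 and Anp1 type extend it, Omh enzymes add alpha-1,2-linked mannose, and galactosyltransferases decorate the chains with the galactose that is typical of fission yeast. Imt enzymes add mannose to inositol phosphorylceramide, a sphingolipid.

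The deleted gene itself, rad24 (SPAC8E11.02c), had 27, 39 and 15 counts in the deletion, against 22565, 18442 and 21135 in wild type. Total counts ran from 19396868 to 21730112 in the deletion and from 11539278 to 15282140 in wild type. Of the markers of P cells, the mating type that h+ gives, 3 rose and 1 fell, and their sum was 1521 to 1679 CPM (counts scaled to a common library size) in the deletion and 1468 to 1545 CPM in wild type. Of 6 M-cell markers 4 rose and 2 fell, and their sum was 98.1 to 101 CPM in the deletion and 116 to 129 CPM in wild type. All 4 sporulation markers (isp3, spo4, meu14 and mde10) rose, and their sum was 163 to 239.8 CPM in the deletion and 62.4 to 65.6 CPM in wild type. In the deletion isp3 held most of that sum, with a mean of 127.8 CPM, against 19.0 CPM in wild type. mde10 rose by 0.46 on the log2 scale, and spo4 had 26, 19 and 23 counts in the deletion. Among the P-cell markers map2 averaged 450.3 CPM in the deletion and 5.14 CPM in wild type, and map3 and map1 also rose. The P-cell marker that fell, sxa1, held most of the wild type sum, with 836 CPM in the deletion and 1424 CPM in wild type. Of the M-cell markers mam2 (log2 fold change -3.04) and mam1 (-0.38) fell, and mfm1, mfm2, mfm3 and sxa2 rose (0.38 to 2.42). The sums therefore hide opposite changes. No marker was at 0 in all libraries of a genotype (spo4 was at 0 in 1 wild type library), and their part in the results below was not tested. In bulk RNA, fewer cells with a transcript and less of it per cell cannot be told apart.

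Loss of rad24 went with lower mRNA of several Golgi transferases and with higher mRNA of most transferases of the dolichol and GPI pathways. Of the 23 Golgi genes, however, 8 rose and 13 fell, and of the 3 Ogm genes 0 rose and 2 fell. Of the 40 genes, 20 rose and 16 fell at an edgeR adjusted p below 0.05, and 4 were not called. Among all 6084 genes tested, 40.9% were called higher and 37.4% lower, so neither count stood far from the background. At least 2-fold changes were found in 1 gene that rose (gmh1) and 4 that fell (imt1, imt2, omh1 and omh5), where the background is 7.23% higher and 5.52% lower. Among the 4985 protein coding genes tested, 41.9% were called higher and 39.5% lower. At 2-fold or more these shares were 5.24% and 4.15%. The median log2 fold change of the 40 genes was 0.11, against 0.02 over all genes tested. The CPM of the genotypes did not overlap for 19 genes above wild type and 17 below it (background 41.8% above and 38.3% below), and they overlapped for omh4, gmh5, alg12 and alg1. All fold changes are the deletion over wild type, and CPM use library sizes scaled by the trimmed mean of M-values (TMM).

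**Figure D1:**
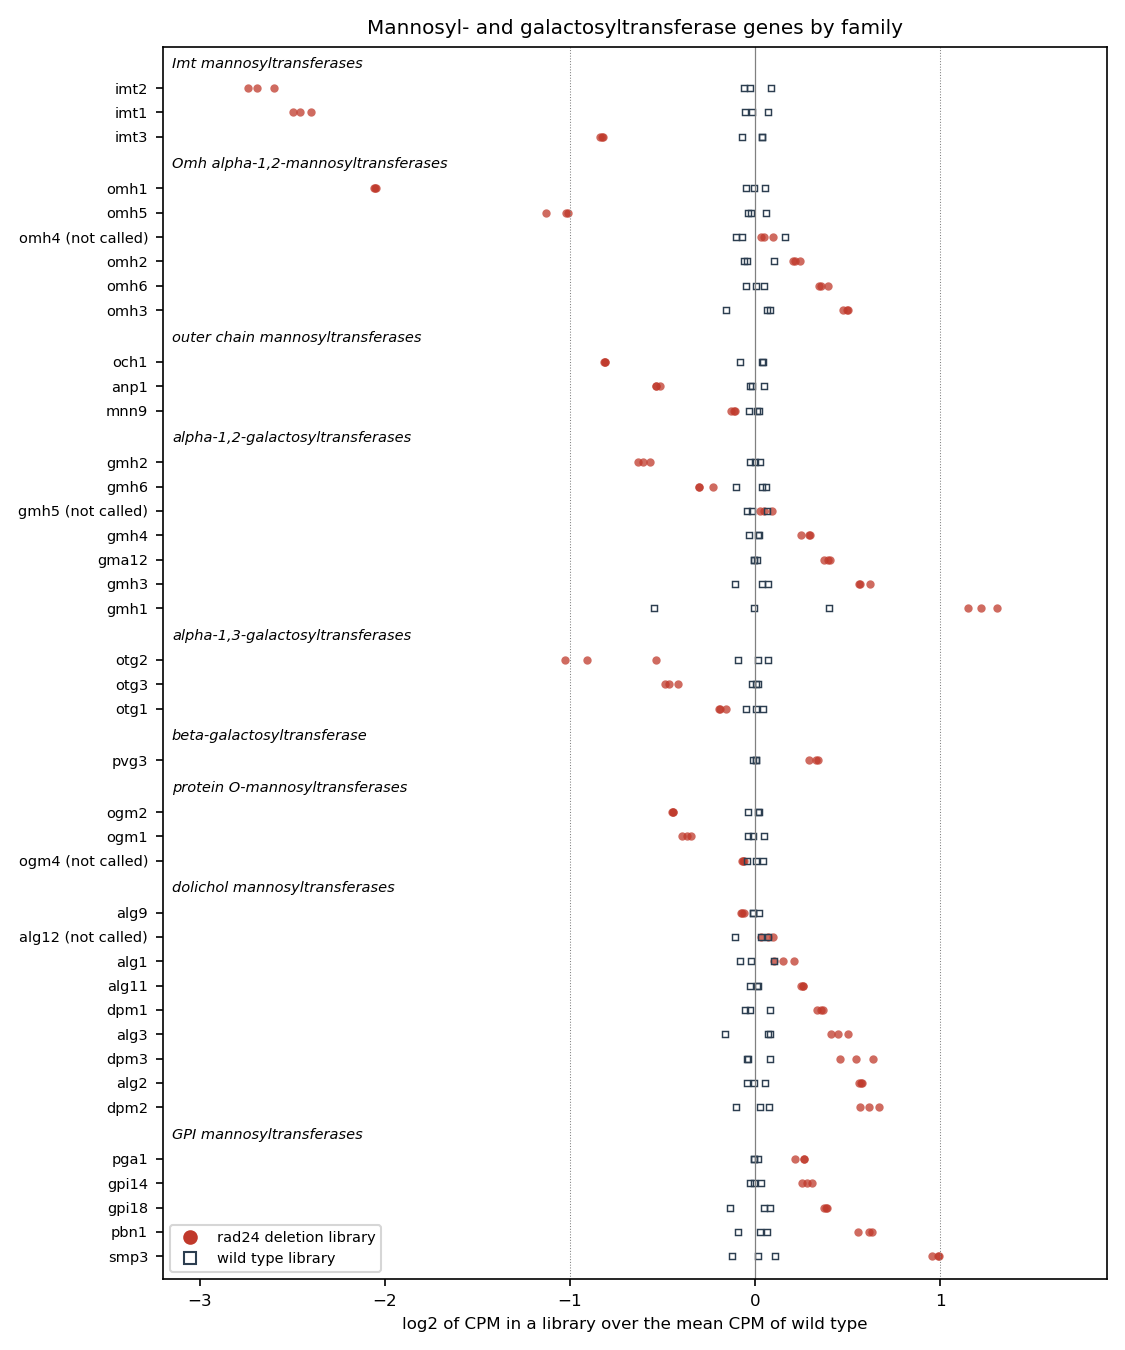
Levels of the 40 transferase genes in each library, grouped by family. The x axis is the log2 of the CPM in a library over the mean CPM of wild type, filled circles are rad24 deletion libraries, open squares are wild type libraries, and dotted lines mark 2-fold. The circles of imt2, imt1 and omh1 lie farthest to the left, and those of all 5 GPI genes lie to the right of the squares.

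The counts depended on the scaling at small fold changes. With library size alone the median of all genes moved by 0.16 on the log2 scale, and 25 of the 40 were called higher and 13 lower. With upper quartile factors 22 were called higher and 14 lower. Each standard error (SE) below comes from edgeR and is smaller than that in the authors' deposited table for all 40 genes. In the authors' deposited table, 32 of the 40 had the same call at an adjusted p below 0.05, and omh2, mnn9, gmh4, otg1, alg9, alg1, pga1 and gpi14 were not called. The log2 fold changes of the authors' deposited table and of edgeR differed by at most 0.028.

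The Imt family fell as a group, with all 3 members lower. The mRNA of imt1 (SPAC2F3.01) stood at 87.1, 81.4 and 83.6 CPM in the deletion libraries, against 443, 454 and 481 CPM in wild type. Every deletion library was far below every wild type library, a 5.46-fold lower mean (log2 fold change -2.45, SE 0.04, edgeR adjusted p = 1.25e-14). That of imt2 (SPCC4F11.04c) stood at 28.1, 27.2 and 30.0 CPM in the deletion, against 178, 174 and 192 CPM in wild type, a 6.39-fold lower mean (log2 fold change -2.68, SE 0.05, adjusted p = 1.69e-14). It was the largest fall among the 40 genes. That of imt3 (SPAC17G8.11c) stood at 53.3, 53.1 and 52.6 CPM in the deletion, against 96.6, 89.5 and 96.5 CPM in wild type (log2 fold change -0.83, SE 0.04, adjusted p = 4.25e-10). The third gene therefore fell as well, by less than imt1 and imt2, and again with no overlap between the genotypes.

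The unequal falls left a different make-up of the family. Per kilobase of annotated exon, imt3 made up 22.6% ± 0.561 of the summed level of the 3 genes in the deletion and 8.42% ± 0.393 in wild type (SD, n = 3 each). The share of imt1 was 63.3% ± 0.760 in the deletion and 72.6% ± 0.634 in wild type, so imt1 stayed the most abundant of them in both. The summed level was 116 ± 2.81 CPM per kb in the deletion and 553 ± 22.8 CPM per kb in wild type (SD, n = 3 each).

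**Figure D2:**
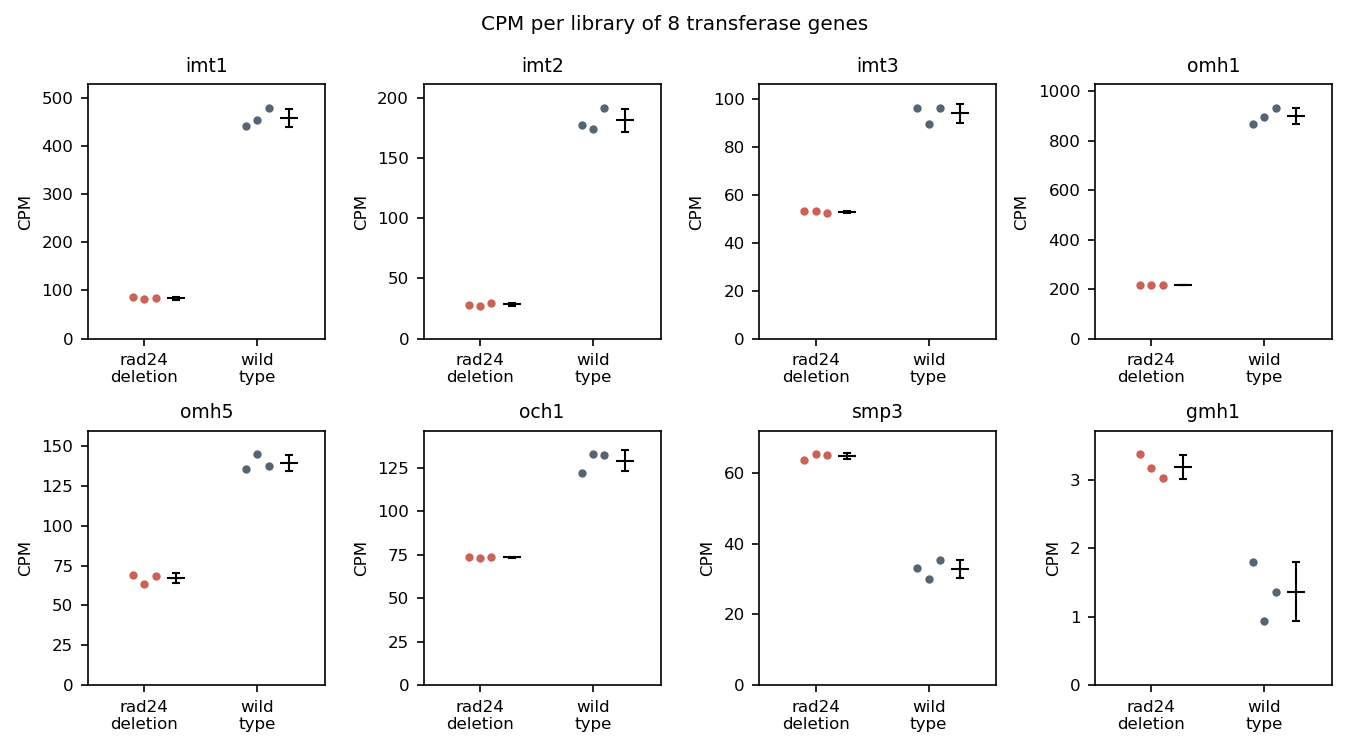
CPM of 8 transferase genes in each rad24 deletion library (left in each panel) and each wild type library (right), on linear axes that start at 0. Bars beside the points give the mean and SD of 3 libraries; imt1, imt2, imt3, omh1, omh5 and och1 are lower in each deletion library than in any wild type library, and smp3 and gmh1 are higher.

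Protein O-mannosylation starts with the Ogm enzymes and is continued by the Omh family. Of the 3 Ogm genes 2 fell and 1 was not called. The mRNA of ogm2 (SPAPB1E7.09) stood at 296, 297 and 297 CPM in the deletion, against 394, 408 and 410.4 CPM in wild type (log2 fold change -0.45, SE 0.03, edgeR adjusted p = 4.12e-08). That of ogm1 (SPAC22A12.07c) averaged 283 ± 4.76 CPM in the deletion and 366 ± 10.8 CPM in wild type (SD, n = 3 each), with a log2 fold change of -0.37. For both genes the deletion libraries lay below the wild type libraries. ogm4 (SPBC16C6.09) averaged 206 ± 0.496 CPM in the deletion and 215 ± 6.15 CPM in wild type (log2 fold change -0.07, adjusted p = 0.0711), and it was called lower with RLE factors (-0.09) and without wild type replicate 2 (-0.09), and higher with library size alone (0.10).

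Of the 6 Omh genes 3 rose, 2 fell and omh4 was not called. The mRNA of omh1 (SPBC19C7.12c), whose enzyme extends O-linked mannose, stood at 217, 218 and 216 CPM in the deletion, against 869, 896 and 934 CPM in wild type. The fall was 4.15-fold with no overlap (log2 fold change -2.05, SE 0.04, edgeR adjusted p = 3.71e-14). omh5 (SPBC32H8.08c), a predicted enzyme of the same kind, stood at 69.2, 63.7 and 68.6 CPM in the deletion, against 136, 145 and 137 CPM in wild type (log2 fold change -1.05, SE 0.04, adjusted p = 3.35e-11). It was past 2-fold with TMM scaling and not with upper quartile factors or library size alone.

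The other Omh genes, all predicted alpha-1,2-mannosyltransferases, did not follow omh1 and omh5. omh3 (SPCC777.07) stood at 57.8, 58.2 and 56.9 CPM in the deletion, against 43.5, 36.8 and 42.9 CPM in wild type (log2 fold change 0.48, SE 0.06, edgeR adjusted p = 3.06e-06). Smaller rises, of 0.36 for omh6 and 0.22 for omh2 on the log2 scale, had no overlap between the genotypes. In the authors' deposited table omh6 was called higher, and omh2 was not called (SE 0.15). omh4 (SPBC1773.08c) averaged 34.6 ± 0.787 CPM in the deletion and 33.2 ± 3.37 CPM in wild type (SD, n = 3 each; log2 fold change 0.05, adjusted p = 0.468). The sum of the family was 218 ± 2.41 CPM per kb in the deletion and 410.4 ± 8.11 CPM per kb in wild type. Per kilobase of exon, omh1 made up 21.4% ± 0.299 of that sum in the deletion and 47.3% ± 0.788 in wild type. Per kilobase of coding sequence its share was 41.6% ± 0.321 in the deletion and 73.0% ± 0.665 in wild type, since the ASM294v3 annotation gives omh1 a transcript of 4629 bases with 1173 coding bases.

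The genes of the N-glycan outer chain all fell. och1 (SPAC1006.05c), whose enzyme adds the alpha-1,6-linked mannose that starts the chain, stood at 73.5, 73.2 and 73.4 CPM in the deletion, against 122, 133 and 132 CPM in wild type (log2 fold change -0.81, SE 0.04, edgeR adjusted p = 2.75e-10). anp1 (SPBC1734.04) averaged 393 ± 3.48 CPM in the deletion and 567 ± 15.6 CPM in wild type (SD, n = 3 each), with a log2 fold change of -0.53. Both were lower in each deletion library than in any wild type library. mnn9 (SPAC4F10.10c), which like anp1 is related to mannan polymerase subunits of Saccharomyces cerevisiae, had a small fall. It stood at 406, 411 and 409 CPM in the deletion, against 433, 448 and 451 CPM in wild type (log2 fold change -0.12, SE 0.04, adjusted p = 0.0073). Its call was lost with upper quartile factors (-0.02), and its sign turned with library size alone (0.05).

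The alpha-1,2-galactosyltransferases, Gma12 and its homologs, moved both ways, with 4 higher, 2 lower and 1 not called. gma12 (SPCC736.04c) averaged 305 ± 3.44 CPM in the deletion and 233 ± 1.36 CPM in wild type (SD, n = 3 each), with a log2 fold change of 0.39 (edgeR adjusted p = 7.85e-08). The log2 fold change was 0.58 for gmh3 and 0.28 for gmh4. The largest fall was in gmh2 (SPAC5H10.13c), which stood at 246, 236 and 239.8 CPM in the deletion, against 372, 358 and 365 CPM in wild type (log2 fold change -0.60, SE 0.03, adjusted p = 2.14e-09). gmh6 fell by 0.28 on the log2 scale.

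The remaining members of this group were gmh5 and gmh1. gmh5 (SPAC637.06), with the highest level per kilobase of exon in the family in the deletion (in wild type it was within the spread of gmh2, and per coding kilobase it was not first in either genotype), stood at 242, 238 and 249 CPM in the deletion, against 227, 231 and 244 CPM in wild type. These values overlapped (log2 fold change 0.05, adjusted p = 0.194), although gmh5 was called higher with upper quartile factors (0.15) and library size alone (0.22). gmh1 (SPAC5H10.11) was the least abundant of the 40, with 77, 65 and 65 counts in the deletion, against 26, 10 and 19 in wild type. These counts are 3.38, 3.18 and 3.03 CPM in the deletion, against 1.80, 0.933 and 1.36 CPM in wild type (log2 fold change 1.18, SE 0.21, edgeR adjusted p = 0.000172). Its SE in the authors' deposited table was 0.45, for a log2 fold change of 1.21. The family sum differed little, at 603 ± 7.88 CPM per kb in the deletion and 589 ± 9.28 CPM per kb in wild type.

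All 3 alpha-1,3-galactosyltransferase genes fell. otg3 (SPBC4C3.09) stood at 157, 165 and 159 CPM in the deletion, against 217, 222 and 221 CPM in wild type (log2 fold change -0.46, SE 0.03, edgeR adjusted p = 1.53e-08). otg2 (SPBC4C3.08), its upstream neighbour on the same strand, stood at 4.83, 4.45 and 6.24 CPM in the deletion, against 8.51, 9.15 and 9.52 CPM in wild type (log2 fold change -0.80, SE 0.14, adjusted p = 0.000103). Neither gene had overlapping libraries. otg1 (SPAC5H10.12c) fell by 0.18 on the log2 scale (adjusted p = 0.000384), and with library size alone it was not called (-0.01). pvg3 (SPBC1921.06c), a beta-galactosyltransferase gene that acts in the pyruvylation of galactose on N-glycans, rose. It stood at 100.3, 97.6 and 101 CPM in the deletion, against 80.2, 79.3 and 80.3 CPM in wild type (log2 fold change 0.32, SE 0.03, adjusted p = 1.21e-06).

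**Figure D3:**
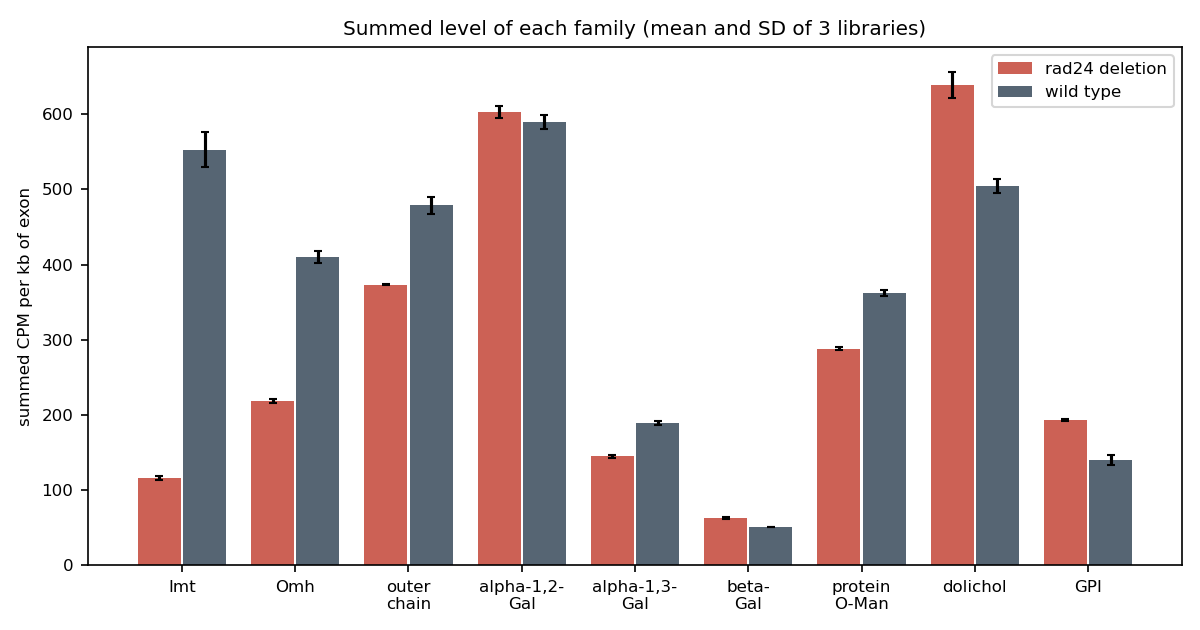
Summed level of each transferase family as CPM per kilobase of exon, in rad24 deletion (left bar) and wild type (right bar); bars are means and error bars SD of 3 libraries. The Imt sum is 116 against 553 and the Omh sum 218 against 410.4, whereas the dolichol sum is 639 against 505 and the GPI sum 192 against 139.7. The gene dpm3, with an annotated exon length of 423 bases, makes up 31.9% of the dolichol sum in the deletion and 27.6% in wild type.

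In the dolichol pathway 7 of 9 genes rose, 1 fell and 1 was not called. The Dpm subunits rose together. dpm2 (SPBC21B10.11), the regulatory subunit, stood at 21.5, 23.0 and 22.2 CPM in the deletion, against 15.2, 14.7 and 13.5 CPM in wild type (log2 fold change 0.62, SE 0.08, edgeR adjusted p = 4.67e-06). dpm3 (SPBC1677.02) stood at 80.9, 91.9 and 86.1 CPM in the deletion, against 57.2, 57.5 and 62.3 CPM in wild type (log2 fold change 0.55, SE 0.05, adjusted p = 4.46e-07). The catalytic subunit gene dpm1 (SPAC31G5.16c) had 191, 193 and 188 CPM in the deletion, against 146, 158 and 144 CPM in wild type, a log2 fold change of 0.35. All deletion libraries lay above all wild type libraries for the 3 genes.

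The Alg mannosyltransferases act on the cytosolic face of the membrane (alg1, alg2 and alg11) and then in the lumen (alg3, alg9 and alg12). The cytosolic genes rose, with log2 fold changes of 0.57 for alg2, 0.25 for alg11 and 0.15 for alg1, whose libraries overlapped. The call of alg1 was lost with DESeq2 (adjusted p = 0.0695) and without wild type replicate 2 (edgeR adjusted p = 0.0652), wild type replicate 3 (0.0621) or deletion replicate 2 (0.0724). Among the lumenal genes alg3 rose (0.44), and alg12 averaged 123 ± 2.64 CPM in the deletion and 117 ± 7.59 CPM in wild type (log2 fold change 0.06, edgeR adjusted p = 0.199). alg9 (SPAC1834.05) stood at 169, 170.1 and 168 CPM in the deletion, against 180.2, 176 and 176 CPM in wild type (log2 fold change -0.07, SE 0.03, adjusted p = 0.0394). That call was lost with protein coding genes only and in 4 of 6 fits without a library, and with library size alone alg9 was called higher (0.09).

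All 5 GPI mannosyltransferase genes rose, with no overlap between the genotypes. smp3 (SPAC4G8.12c), for the enzyme that adds a side mannose to the anchor, stood at 63.7, 65.3 and 65.1 CPM in the deletion, against 33.1, 30.1 and 35.3 CPM in wild type, a 1.97-fold higher mean (log2 fold change 0.97, SE 0.05, edgeR adjusted p = 1.54e-09). gpi18 (SPAC18B11.05) stood at 115, 114 and 115 CPM in the deletion, against 90.7, 79.9 and 93.0 CPM in wild type (log2 fold change 0.38, SE 0.05, adjusted p = 4.24e-06). The log2 fold change was 0.59 for pbn1, 0.28 for gpi14 and 0.25 for pga1. In Saccharomyces cerevisiae Pbn1 works with Gpi14, and Pga1 with Gpi18. Counted together, 12 of the 14 dolichol and GPI genes rose and 1 fell (median log2 fold change 0.37), and 8 of the 23 genes of the Imt, Omh, outer chain and galactosyltransferase families rose and 13 fell (median -0.18). The pooling of families into these sets was not planned. The pooled counts stand beside 40.9% called higher and 37.4% lower among all genes tested. In the authors' deposited table alg1, alg9, gpi14 and pga1 of the first set were not called. Nor were omh2, mnn9, gmh4 and otg1 of the second. The 3 Ogm genes, whose enzymes also act in the endoplasmic reticulum, are in neither count (0 rose and 2 fell).

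Levels were compared between genes per kilobase of exon, with lengths from the ASM294v3 annotation, whereas the submitters' processing notes name ASM294v2. In wild type imt1 stood first of the 40 (402 ± 17.1 CPM per kb), although its annotated transcript lacks an upstream end. It was followed by mnn9 (214 ± 4.61), anp1 (207 ± 5.69) and omh1 (194 ± 7.07), where neither mnn9 and anp1 nor anp1 and omh1 differed by more than the sum of their SDs. In the deletion imt1 stood at place 13 (73.5 ± 2.52 CPM per kb), omh1 at place 21 (46.8 ± 0.170) and imt2 at place 38 (16.4 ± 0.832). The first places were held there by dpm3 (204 ± 12.9) and mnn9 (197 ± 1.28), which did not differ by more than that sum, and by gmh5 (167 ± 3.83) and gma12 (150.5 ± 1.70). Per kilobase of coding sequence omh1 came first in wild type (767 ± 27.9 CPM per kb) and imt1 second (478 ± 20.4). On that scale mnn9 came first in the deletion (403 ± 2.61) and dpm3 second (316 ± 20.1). These values of mnn9 and dpm3 differed by more than the sum of their SDs. In the deletion omh1 then stood at place 9 (185 ± 0.671), imt1 at place 19 and imt2 at place 37. The place of omh1 in the deletion thus depended on the length used. gmh1 and otg2 had the lowest levels in both genotypes on either scale.

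For some of these genes the table also counts an RNA of the opposite strand. In the ASM294v3 annotation 36 of the 40 overlap a gene on the opposite strand, and for 8 of them this is a non-coding RNA with counts in the table. The library kit keeps strand, but how the counting treated strand is not stated, so a read of one partner may have been counted for the other. imt2-antisense-1 stood at 25.6, 24.7 and 24.4 CPM in the deletion, against 4.77, 4.11 and 4.08 CPM in wild type (log2 fold change 2.52, SE 0.09, edgeR adjusted p = 2.41e-11). It rose while imt2 fell, and the mean levels of the pair were 24.9 CPM antisense and 28.4 CPM sense in the deletion, and 4.32 CPM antisense and 182 CPM sense in wild type. otg2-antisense-1 fell along with otg2, with 17.8, 20.9 and 19.7 CPM in the deletion, against 47.8, 51.7 and 53.0 CPM in wild type (log2 fold change -1.39, adjusted p = 3.80e-10). omh4-antisense-1 rose by 0.89 on the log2 scale beside omh4, which was not called. The partners of otg1 (SPAC5H10.12c-antisense-1, adjusted p = 0.129), ogm1 (SPNCRNA.717, 0.174) and alg3 (snoR02, 0.123) were not called. The antisense RNAs named for gmh3 and pvg3 had at most 7 counts in any library and were not tested.

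**Figure D4:**
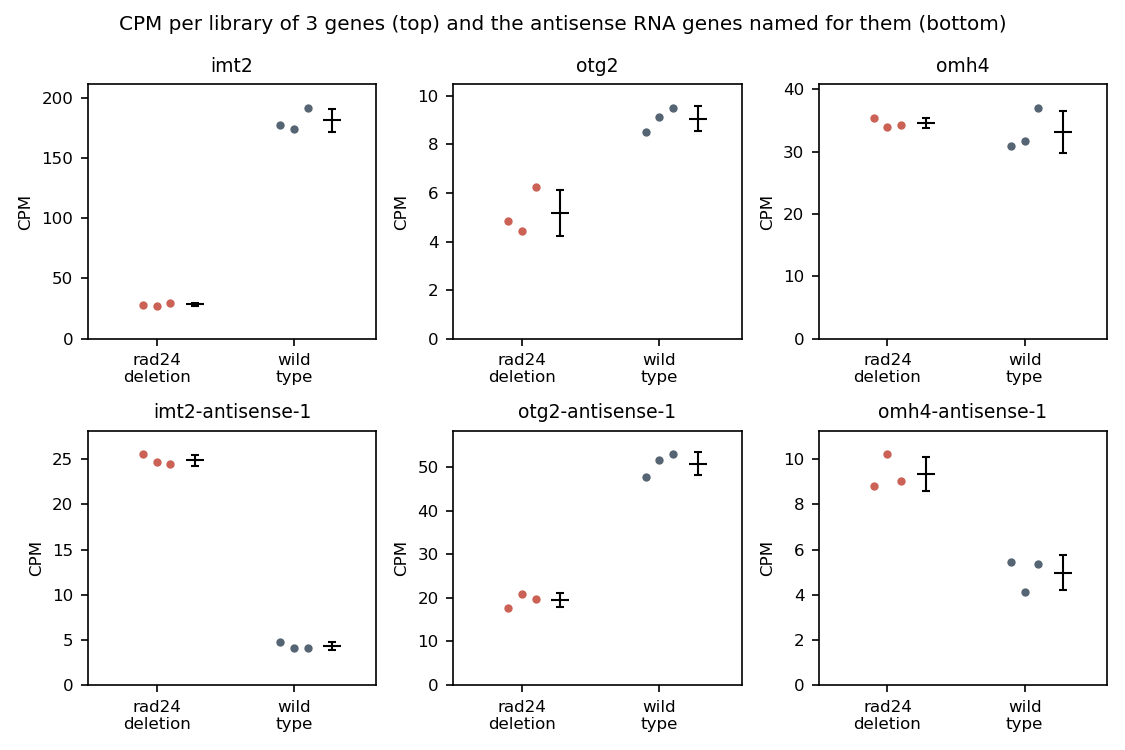
CPM in each rad24 deletion library (left) and each wild type library (right) of imt2, otg2 and omh4 (top) and of the antisense RNA genes named for them (bottom), with the mean and SD of 3 libraries beside the points. imt2 is lower and its antisense RNA higher in the deletion, and otg2 and its antisense RNA are both lower.

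Genes next to the members with the largest falls moved in either direction. Next to imt1, rmp1 (log2 fold change 0.19) and lsm6 (0.87) rose. Next to imt2, SPCC4F11.03c (-0.86) and SPCC4F11.05 (-1.45) fell, and next to omh1, bqt4 (0.45) and SPBC19C7.11 (0.59) rose. Next to omh5, git5 rose (0.23) and wdr8 was not called (0.01, edgeR adjusted p = 0.886). The gene before smp3 on the same strand is prz1, which encodes the transcription factor controlled by calcineurin. It fell by 2.75 on the log2 scale while smp3 rose. Members stand side by side in 2 places of the annotation: gmh2, otg1 and gmh1 follow each other, with log2 fold changes of -0.60, -0.18 and 1.18, and otg2 precedes otg3. The gmh1 and otg1 genes overlap on opposite strands, and gmh1 had a mean of 3.20 CPM in the deletion and 1.36 CPM in wild type beside 90.2 and 102 CPM for otg1.

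The enzymes depend on sugar nucleotides, on transporters and on the complexes that use their products, and 6 lists of such genes were examined. Of 68 tested genes 25 rose and 31 fell, with a median log2 fold change of -0.08. Leaving out 5 that were matched by name alone, 24 of 63 rose and 29 fell (median -0.06). Against the 40.9% higher and 37.4% lower of all genes tested, these counts and those of the small lists below are descriptions and set no list apart. Of 13 genes of sugar nucleotide supply 8 fell and 4 rose (median -0.34). The epimerase gene gal10 fell by 2.43 on the log2 scale, the phosphomannomutase gene pmm1 by 0.76, and gna1, of the route to UDP-N-acetylglucosamine, rose by 1.03. Along the way to the donor of mannosyltransferases, the GDP-mannose synthesis gene mpg1 averaged 1326 ± 35.4 CPM in the deletion and 2213 ± 47.7 CPM in wild type (SD, n = 3 each; log2 fold change -0.74, edgeR adjusted p = 3.46e-09). The related gene mpg2 rose, with 375 ± 6.36 CPM in the deletion and 344 ± 8.73 CPM in wild type (log2 fold change 0.12, adjusted p = 0.00595). The Golgi GDP-mannose transporter gene vrg4 averaged 202 ± 2.87 CPM in the deletion and 194 ± 5.16 CPM in wild type (log2 fold change 0.06, adjusted p = 0.109), and the UDP-galactose transporter gene gms1 fell by 0.53. mpg1, mpg2, vrg4, gms1 and pvg1 were named after their values were seen.

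Among the other steps of the dolichol pathway 7 of 12 genes rose and 1 fell (median 0.13), against 4 that rose with DESeq2 and 2 that fell with RLE factors. The N-acetylglucosaminyltransferase gene alg13 rose by 0.44 on the log2 scale, while the prenyltransferase gene nus1 fell by 0.59. The oligosaccharyltransferase, which moves the finished oligosaccharide to proteins, had 7 of 8 tested genes lower and none higher at an adjusted p below 0.05 (median -0.32). Its largest falls were in ost2 (-0.99), wbp1 (-0.61) and stt3 (-0.43), the catalytic subunit gene. dad1, 1 of the genes that fell, encodes a DASH complex subunit and was matched by name alone, and without it 6 of 7 fell. With upper quartile factors or library size alone 4 of the 8 were lower and 1 was higher.

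In glycoprotein folding and trimming 5 of 9 genes fell and 3 rose (median -0.14), with gpt1, the folding sensor glucosyltransferase (-0.54), and gls2, of glucosidase II (-0.39), lower and the mannosidase gene mnl1 (0.31) higher. Without gtb1 and png1, which have other functions, 5 of 7 fell and 2 rose. Of the 9 genes, 3 fell with upper quartile factors and 2 with library size alone. Among 16 other GPI genes 9 rose and 4 fell (median 0.20), and without eri1, an siRNA ribonuclease gene matched by name alone, 9 of 15 rose and 4 fell. The deacylase gene bst1, which acts on anchors after their transfer, averaged 107 ± 2.81 CPM in the deletion and 752 ± 32.4 CPM in wild type (SD over 3 libraries; log2 fold change -2.81, edgeR adjusted p = 8.00e-15). The acyltransferase gene gwt1 fell by 1.47 and the deacetylase gene gpi12 rose by 1.59. Of 10 galactomannan and Golgi partners 6 fell and 2 rose (median -0.37). The calcium and manganese antiporter gene gdt1 fell by 7.41, with 22, 5 and 12 counts in the deletion, against 1481, 1115 and 1448 in wild type. These deletion counts are near the floor, and their cause was not tested. The nucleoside diphosphatase gene gda1 fell by 0.80. The fall of 0.66 in gef1 is that of a Cdc42 exchange factor gene matched by name alone. Without gef1, 5 of 9 genes fell and 2 rose (median -0.35). The pyruvyltransferase gene pvg1, which acts on galactose of N-glycans as Pvg3 does, was among those that rose, by 0.37.

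**Figure D5:**
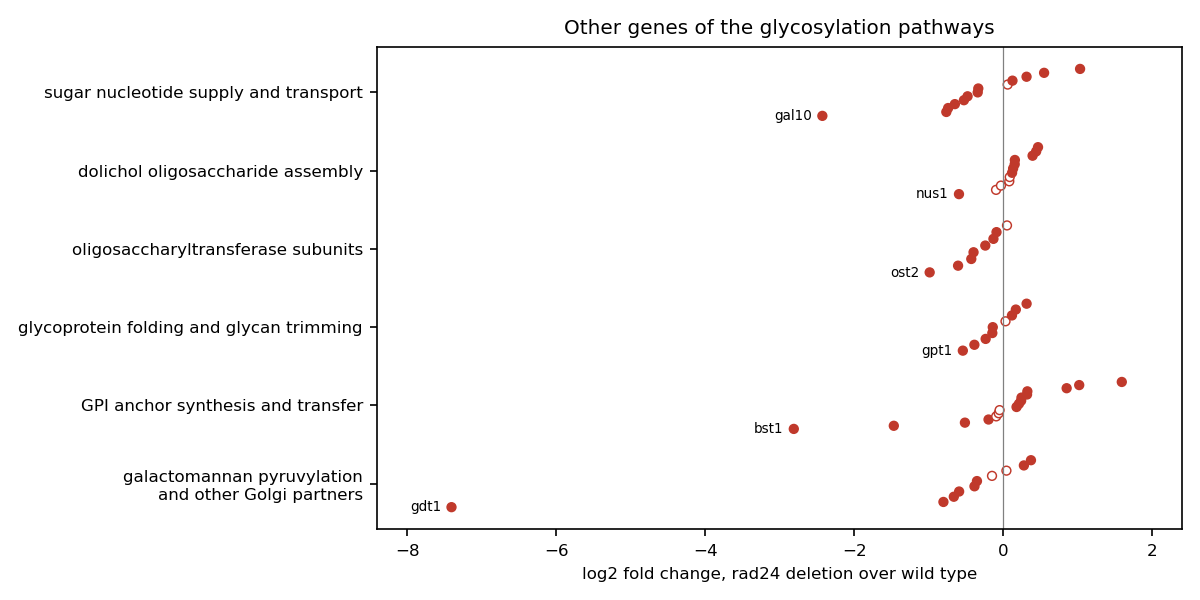
Log2 fold changes (rad24 deletion over wild type) of 68 genes (5 matched by name alone) in 6 lists drawn up for the glycosylation pathways. Each point is a gene, filled at an adjusted p below 0.05 and open otherwise, and the lowest gene of each list is named. The points of the oligosaccharyltransferase list lie mostly left of 0, and gdt1 and bst1 are the farthest falls.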

How the data were processed

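RNA of 3 rad24 deletion and 3 wild type libraries was analysed, grouped by title. The authors deposited raw counts per gene, and a table of their comparison with log2 fold changes, standard errors, p-values, a test score and mean normalized counts (a signal), all as its column headers name them. Per the submitters' processing notes, the tools were DESeq2, HTSeq 0.10.0, HISAT2 2.1.0 and SAMtools, and the genome build was ASM294v2. Their roles and settings are not stated there. By default HTSeq leaves out reads that overlap several genes or match several places, which would lower counts of overlapping genes and of near-identical copies.

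Counts of 6986 genes (a repeated identifier was kept once) entered edgeR 4.0.16 (R 4.3.3) and its quasi-likelihood test, with genotype as the only term, TMM factors and filterByExpr, which left 6084. P-values were adjusted by the Benjamini-Hochberg method over all genes tested at a threshold of 0.05. An SE is the absolute log2 fold change over the square root of the F statistic. Steps were tested on simulated counts. No library was a copy of another, since chi-square over degrees of freedom was 2.45 to 7.82 for pairs within a genotype. Levels per kilobase use ASM294v3 exon or coding lengths. SDs are over 3 libraries.

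Members and lists were chosen with earlier results of these data known, and families were assigned from product names. Values in every library are given for each member called with at least 2-fold change and, in each family, for the largest rise, the largest fall and the highest count per kilobase. Of each list up to 3 genes with the largest change are named (1 is not reported here), and neighbours, antisense RNAs and other members were named after their values were seen. Of 78 listed names 2 were members, 69 were matched (1 by an older name) and 7 were not. Alternatives were upper quartile or RLE factors, unscaled library size, other filters, DESeq2 1.42.0, limma-voom (limma 3.58.1), protein coding genes only, the replicate block and leaving out each library.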

Additional observations from a re-analysis of the deposited data

How the results depend on the processing

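Among the alternatives fitted here, directions and calls were most sensitive to the scaling, which moved members with small fold changes. More calls (8) were lost in the authors' deposited table, where the SEs were larger and the fold changes nearly the same. The numbers of members called higher (19 to 25 over all alternatives fitted here) and lower (13 to 17) stayed within 1.5 times of 20 and 16. At least 2-fold rises numbered 2 with upper quartile factors and with library size alone, and 1 to 2 without single libraries (2 without wild type replicate 3). The median of the members was 0.084 with RLE factors, 0.20 with upper quartile factors and 0.27 with library size alone, and 0.077 to 0.14 without single libraries. alg9 turned to 0.024 with upper quartile factors and 0.092 with library size alone, and mnn9 to 0.045 with library size alone. The falls called in the dolichol family were 0 with upper quartile factors, library size alone, protein coding genes only and the replicate block, and 0 to 1 without single libraries, and its rises were 6 to 7 without single libraries. The protein O-mannosyltransferases had 1 rise with library size alone. In the lists, dolichol assembly had 4 rises with DESeq2 and 2 falls with RLE factors, and folding and trimming had 3 falls with upper quartile factors and 2 with library size alone. The oligosaccharyltransferase had 1 rise and 4 falls with each of these 2 scalings. The cause was not tested.

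The replicate number as a block left 20 members higher and 15 lower, against 20 and 16 without it, and only alg9 lost its call. Same-numbered libraries deviated together with correlations of 0.0049, -0.00028 and 0.083 over genes, so the numbers were not taken to pair the libraries. Depth limits gmh1, with as few as 10 counts in a wild type library, more than any other member.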
